A study of Saccharomyces cerevisiae with 14 samples.

Results

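The 10 genes described here encode the folding and oxidation machinery inside the endoplasmic reticulum (ER) of budding yeast, *Saccharomyces cerevisiae*. They were listed by name for their known function: *KAR2*, *LHS1*, *SIL1*, *SCJ1* and *JEM1* of the Hsp70 system, *ERO1*, *PDI1*, *EUG1* and *MPD1* of oxidation and disulfide isomerisation, and *FPR2*, a prolyl isomerase. The list used no measured value as a criterion, but it was chosen with earlier results of these data known. All 10 were among the 5443 genes tested. The RNA came from 3 strains. NFRI 3236 was labelled thermotolerant and NFRI 3155 thermosensitive, both from a culture collection, and the laboratory strain S288C was the control. Cells growing exponentially in rich medium (YPD) were held at 39°C for 30 min, or came from cultures at 30°C. The 14 arrays comprised 2 per temperature for NFRI 3236 and for NFRI 3155 and 3 per temperature for S288C. The array's probes follow a reference genome, so a sequence difference in an NFRI strain could alter its signal in a comparison of levels between strains.

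Secretory proteins enter the ER unfolded. Kar2, the Hsp70 of the ER lumen (BiP in mammals), binds them in a cycle of ATP hydrolysis that J-domain proteins such as Scj1 and Jem1 start and that the nucleotide exchange factors Lhs1 and Sil1 reset. Disulfide bonds are made by Pdi1, of which Eug1 and Mpd1 are relatives, and the flavoprotein Ero1 reoxidises Pdi1 by passing electrons to oxygen. Fpr2 belongs to the FKBP family, which catalyses the turning of proline bonds. When unfolded proteins accumulate, the sensor Ire1 splices *HAC1* mRNA, and the Hac1 protein then switches on many genes of this kind, a circuit known as the unfolded protein response.

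All values below are normalised signals, the deposited signal of a gene divided by the 75th percentile of its array, so each measures a gene against the rest of its own array. Apart from signal over background and as a share of the array's highest signal, one gene's level is not set against another's. The 75th percentile itself lay between 95.7 and 438. All 10 genes were above the background, defined as the 95th percentile of 1746 probe sets for fission yeast on the same array, on all 14 arrays. The heat labels were borne out by *HSP26*, a small heat shock protein, at 26.2 to 59.8 on the 39°C arrays and 0.0582 to 0.182 on the 30°C arrays. The S288C arrays at 30°C stood apart in quality measures: 0 to 1 of 12 poly-A control probe sets passed the background there, against 8 to 12 elsewhere, and the 3' to 5' signal ratio of *ACT1* was 1.84 to 2.05, against 1.16 to 1.58 elsewhere. The second NFRI 3236 array at 39°C had a 3' to 5' ratio of 10.9 for *WBP1*, against 1.41 to 5.86 on the others, and without it 6 of the 10 genes still rose in NFRI 3236. The S288C arrays at 30°C make up a whole group, so any part of theirs in the S288C heat response or in the differences between strains cannot be told apart from strain and temperature.

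At 39°C, 6 of the 10 genes were higher than at 30°C in NFRI 3236, 7 in NFRI 3155 and all 10 in S288C (limma, Benjamini-Hochberg adjusted p under 0.05), and none was lower in any strain. Among all genes tested, 15.7%, 18.1% and 25.2% were higher in NFRI 3236, NFRI 3155 and S288C, and 23.5%, 24.1% and 28.2% were lower. The 6 genes that rose in all 3 strains were *LHS1*, *SIL1*, *SCJ1*, *JEM1*, *ERO1* and *MPD1*, where 9.06% of all genes did so. *FPR2* passed the test in NFRI 3155 and S288C, and *KAR2*, *PDI1* and *EUG1* passed it in S288C. The median log2 change of the 10 genes was 1.27 in NFRI 3236, 1.2 in NFRI 3155 and 1.81 in S288C, and over all genes it was -0.10, -0.08 and -0.04. Every 39°C array lay above every 30°C array for 7 genes in NFRI 3236, 10 in NFRI 3155 and 9 in S288C, against 30.8%, 33.7% and 30.4% of all genes. The arrays measured RNA from whole cultures, so more RNA per cell and more cells expressing a gene cannot be told apart.

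**Figure D1:**
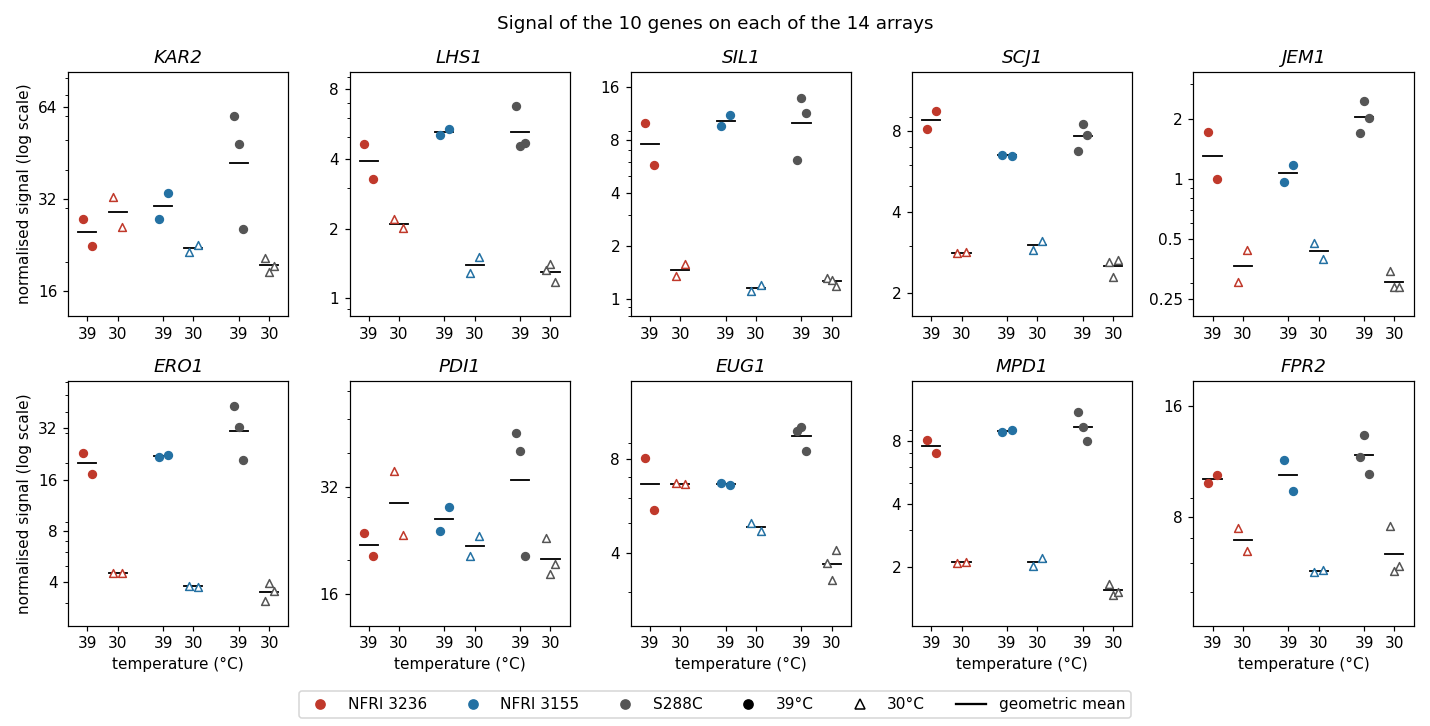
Normalised signal (log scale) of each of the 10 genes on all 14 arrays, by strain and temperature; filled circles are 39°C arrays, open triangles 30°C arrays and lines geometric means. *SIL1*, *ERO1* and *MPD1* are separated by temperature in every strain, while the 39°C and 30°C arrays of NFRI 3236 overlap for *KAR2*, *EUG1* and *PDI1*.

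**Figure D2:**
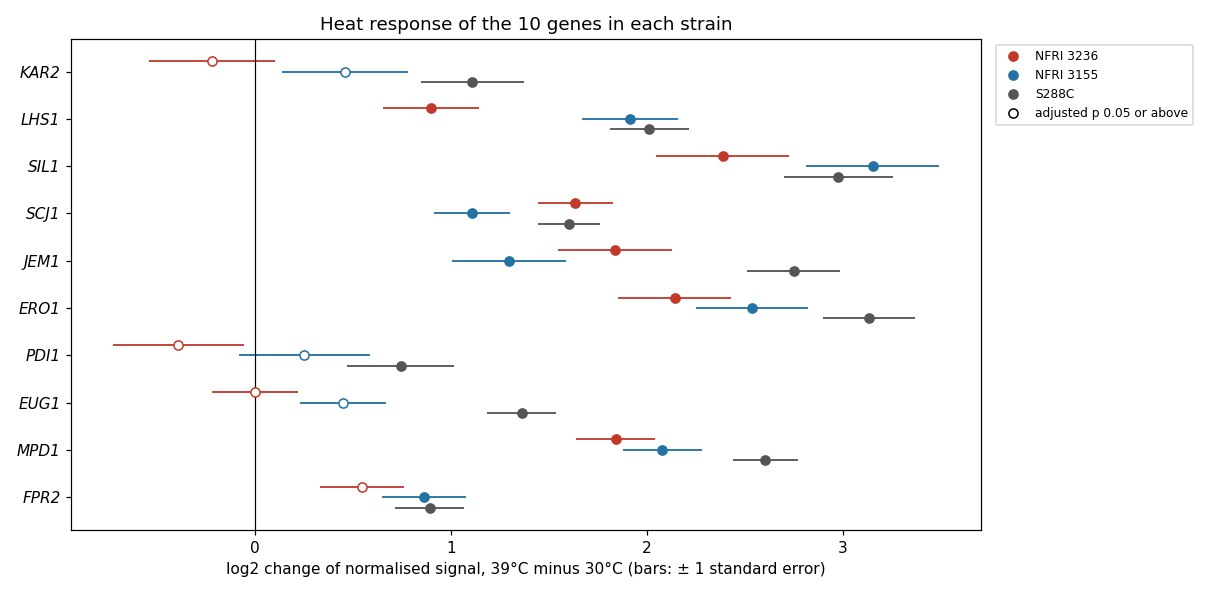
Log2 change of normalised signal, 39°C minus 30°C, for each of the 10 genes in each strain, with bars of ± 1 standard error; open circles have an adjusted p of 0.05 or above. The changes run between -0.39 (*PDI1* in NFRI 3236) and 3.15 (*SIL1* in NFRI 3155).

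Both nucleotide exchange factors of Kar2 rose in every strain. *SIL1* was at 10 and 5.79 at 39°C in NFRI 3236, against 1.34 and 1.58 at 30°C. In NFRI 3155 it was at 9.53 and 11.1 at 39°C and at 1.12 and 1.2 at 30°C. In S288C it was at 6.14, 13.9 and 11.4 at 39°C and at 1.32, 1.28 and 1.18 at 30°C. No 39°C array came near a 30°C array, and the rises of 5.23-fold in NFRI 3236 (adjusted p = 1.49e-04), 8.89-fold in NFRI 3155 (1.10e-05) and 7.87-fold in S288C (1.37e-06) were among the steepest of the 10 genes. 

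*LHS1*, an Hsp110-type relative of Kar2 that speeds its nucleotide exchange, rose 1.86-fold in NFRI 3236 (adjusted p = 0.0114), 3.76-fold in NFRI 3155 (4.64e-05) and 4.04-fold in S288C (2.53e-06). In NFRI 3236 its arrays read 4.67 and 3.29 at 39°C and 2.21 and 2.01 at 30°C. In NFRI 3155 they read 5.1 and 5.4 at 39°C and 1.29 and 1.5 at 30°C. In S288C they read 6.80, 4.53 and 4.69 at 39°C and 1.33, 1.41 and 1.17 at 30°C. The groups did not overlap in any strain, and NFRI 3236 had both the lowest 39°C array and the highest 30°C arrays. Its *LHS1* call was lost without the first 39°C array (log2 change 0.65, adjusted p = 0.0960) and without the second 30°C array (0.83, adjusted p = 0.0672).

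The J-domain genes rose in all strains, by amounts that differed in order. *SCJ1*, which encodes a soluble J-domain partner of Kar2 in the lumen, ran between 6.45 and 9.46 on the 39°C arrays and between 2.30 and 3.13 on the 30°C arrays of all strains. The rise was 3.11-fold in NFRI 3236 (adjusted p = 3.84e-05), 2.16-fold in NFRI 3155 (4.92e-04) and 3.04-fold in S288C (2.28e-06). *JEM1* encodes a membrane-bound J-domain protein that also acts in nuclear fusion during mating. It read 1.72 and 1.00 at 39°C and 0.305 and 0.441 at 30°C in NFRI 3236, a rise of 3.57-fold (adjusted p = 3.29e-04). In NFRI 3155 it read 0.966 and 1.18 at 39°C and 0.479 and 0.396 at 30°C, 2.46-fold (0.00286). In S288C it read 1.71, 2.48 and 2.03 at 39°C and 0.347, 0.286 and 0.286 at 30°C, 6.72-fold (6.95e-07). The 3 S288C arrays at 39°C all lay above both NFRI 3155 arrays. *JEM1* had the weakest signal against background of the 10 genes, at 5.61 times background on its lowest array.

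*KAR2* itself passed the test in S288C and in neither NFRI strain under this scaling. It read 27.6 and 22.5 at 39°C in NFRI 3236, against 32.5 and 25.9 at 30°C, which is 0.858-fold (adjusted p = 0.627) with overlapping arrays. In NFRI 3155 it read 27.5 and 33.5 at 39°C and 21.4 and 22.7 at 30°C, 1.38-fold (adjusted p = 0.269), with no overlap. In S288C it read 59.7, 48.6 and 25.5 at 39°C and 20.5, 18.5 and 19.4 at 30°C, a rise of 2.16-fold (adjusted p = 0.00304). The third S288C array at 39°C lay well below the other two but still above all 30°C arrays.

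Among the oxidation genes, *ERO1* rose in every strain and further than any other of the 10 genes in S288C. In NFRI 3236 it read 22.9 and 17.3 at 39°C and 4.53 and 4.51 at 30°C. In NFRI 3155 it read 21.8 and 22.2 at 39°C and 3.82 and 3.77 at 30°C. In S288C it read 43.1, 32.5 and 20.9 at 39°C and 3.12, 3.94 and 3.53 at 30°C. No groups overlapped, and the rises were 4.41-fold in NFRI 3236 (adjusted p = 9.66e-05), 5.80-fold in NFRI 3155 (1.64e-05) and 8.78-fold in S288C (2.08e-07). *MPD1*, a Pdi1 relative, ran between 7.01 and 11 on all 39°C arrays and between 1.46 and 2.21 on all 30°C arrays. Its rises were 3.58-fold, 4.22-fold and 6.08-fold in NFRI 3236, NFRI 3155 and S288C (adjusted p = 2.14e-05, 4.50e-06 and 4.65e-08).

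*PDI1*, the essential disulfide isomerase, and *EUG1*, its non-essential relative, passed the test in S288C and in neither NFRI strain. *PDI1* read 23.7 and 20.4 at 39°C and 35.5 and 23.5 at 30°C in NFRI 3236, 0.762-fold (adjusted p = 0.384). In NFRI 3155 it read 24.1 and 28.2 at 39°C and 20.5 and 23.4 at 30°C, 1.19-fold (0.570). In S288C it read 45.7, 40.6 and 20.5 at 39°C and 23.0, 18.2 and 19.4 at 30°C, 1.67-fold (0.0350). The third S288C array at 39°C fell inside the 30°C range. The S288C call was also lost without either of the other 39°C arrays (log2 change 0.52 and 0.61, adjusted p = 0.139 and 0.121) and without replicate 2 or 3 at 30°C (0.67 and 0.72, adjusted p = 0.100 and 0.0843), where the main value was 0.74. It was lost as well with the median shift (0.50, adjusted p = 0.124), with only the S288C arrays in the fit (adjusted p = 0.0599) and by the methods' t-test unadjusted. 

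*EUG1* read 8.10 and 5.52 at 39°C and 6.73 and 6.65 at 30°C in NFRI 3236, 1.00-fold (adjusted p = 0.998, 95% confidence interval of the log2 change -0.47 to 0.47). In NFRI 3155 it read 6.71 and 6.6 at 39°C and 5.02 and 4.73 at 30°C, 1.37-fold (adjusted p = 0.114). In S288C it read 9.83, 10.2 and 8.51 at 39°C and 3.72, 3.29 and 4.10 at 30°C, 2.57-fold (2.91e-05). S288C had both the highest 39°C arrays and the lowest 30°C arrays of the 3 strains. *FPR2* read 9.41 to 13.3 on the 39°C arrays and 5.68 to 7.55 on the 30°C arrays. Its rise was 1.82-fold in NFRI 3155 (adjusted p = 0.00566) and 1.86-fold in S288C (7.97e-04). In NFRI 3236 it was 1.46-fold higher without passing the test (adjusted p = 0.0592), although both 39°C arrays lay above both 30°C arrays. It passed there with no shift (log2 1.38, adjusted p = 0.0185), quantile normalization (1.18, 0.00100) and the median shift (0.65, 0.0340), where the main value was 0.55. *EUG1* and *FPR2* are neighbours on chromosome IV, and no other pair among the 10 genes is adjacent.

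The results for *KAR2* and *PDI1* turned on how the arrays were scaled. Before scaling, the deposited *KAR2* signal in NFRI 3236 was 8551 and 9843 at 39°C and 5551 and 6442 at 30°C, and that of *PDI1* was 7338 and 8942 at 39°C and 6064 and 5831 at 30°C. The 75th percentile of the same arrays was 309 and 438 at 39°C and 171 and 248 at 30°C. Both the genes' signals and the percentile they were divided by were thus higher on the 39°C arrays. With no shift, the log2 change in NFRI 3236 was 0.62 for *KAR2* and 0.45 for *PDI1*, and neither passed the test. *KAR2* and *PDI1* were also bright, at 71.7% to 91.2% and 59.2% to 76.1% of the highest signal of the array at 39°C, against 20.7% to 56.6% and 21% to 51.2% at 30°C. The part of this in their changes was not tested. With quantile normalization, which gives all arrays the same distribution, the log2 change of *KAR2* in NFRI 3236 was 1.14 (adjusted p = 2.98e-04) in place of -0.22, and that of *PDI1* was 1.02 (6.63e-04) in place of -0.39. In NFRI 3155 *KAR2* then rose by 1.27 (7.51e-05) and *PDI1* by 1.13 (1.88e-04). Under that scaling 9 of the 10 genes were higher in NFRI 3236, all but *EUG1*, and 10 in both other strains, against 17.6%, 19.9% and 25.8% of all genes in NFRI 3236, NFRI 3155 and S288C.

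**Figure D3:**
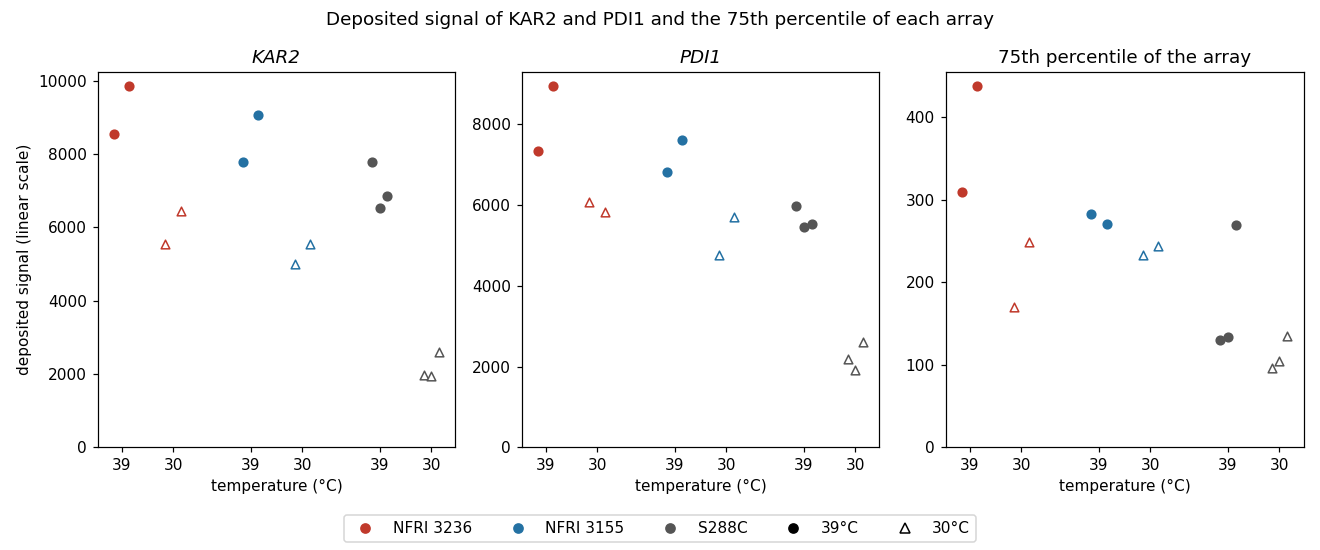
Deposited signal (linear scale) of *KAR2* and *PDI1* and the 75th percentile of the deposited signals on each array, by strain and temperature; filled circles are 39°C arrays and open triangles 30°C arrays. In NFRI 3236 all 3 quantities are higher at 39°C, with *KAR2* at 8551 and 9843 at 39°C and at 5551 and 6442 at 30°C.

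**Figure D4:**
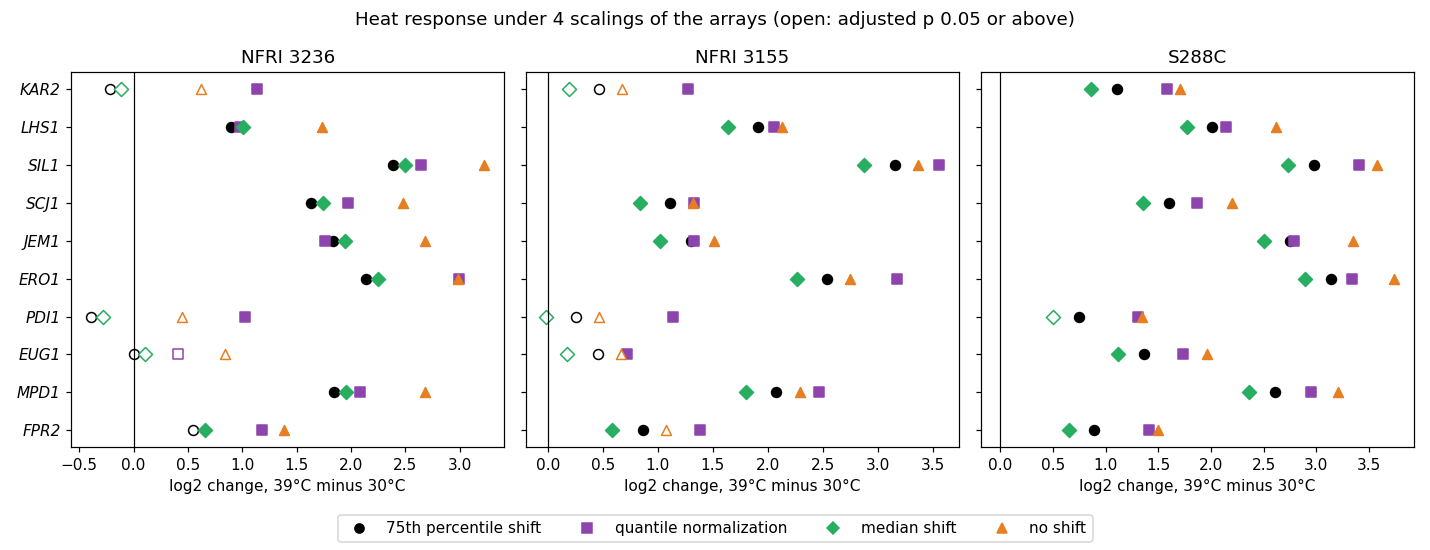
Log2 change, 39°C minus 30°C, of each gene in each strain under 4 scalings of the arrays; open symbols have an adjusted p of 0.05 or above. In NFRI 3236, *KAR2* and *PDI1* lie below 0 with the 75th percentile or median shift and above 1 with quantile normalization.

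The third S288C array at 39°C stood apart in its 75th percentile, which was 269, against 131 and 134 on the other 2 arrays of its group. Its deposited *KAR2* signal of 6863 lay between their 7793 and 6519. Its normalised values were the lowest of its group for *KAR2*, *ERO1*, *PDI1*, *EUG1*, *MPD1* and *FPR2*, and not for *LHS1*, *SIL1*, *SCJ1* and *JEM1*. Results without it are given with the comparisons of strains.

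The interaction term tested whether the heat response differed between strains. Relative to S288C, the response of NFRI 3236 was smaller for *EUG1*, by -1.36 on the log2 scale (95% confidence interval -1.97 to -0.75, adjusted p = 0.0117), and for *LHS1*, by -1.12 (-1.80 to -0.43, adjusted p = 0.0417). These were 2 of 10 genes, against 5.82% of all genes. The response of NFRI 3155 was smaller than that of S288C for *JEM1*, by -1.45 (-2.26 to -0.64, adjusted p = 0.0203), and for *EUG1*, by -0.91 (-1.52 to -0.30, adjusted p = 0.0427), against 8.87% of all genes. Of these calls, *EUG1* in NFRI 3236 kept its call when any single array was left out. *LHS1* and the NFRI 3155 value of *EUG1* lost theirs in most such fits, with adjusted p up to 0.155 and 0.135. With no shift of the arrays all 4 kept their direction and none passed (adjusted p = 0.452 for *EUG1* and 0.616 for *LHS1* in NFRI 3236, 0.0894 for *JEM1* and 0.217 for *EUG1* in NFRI 3155). *JEM1* lost it without the first NFRI 3155 array at 39°C (-1.30, adjusted p = 0.0550) or at 30°C (-1.31, adjusted p = 0.0850).

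The other genes had no called difference, with intervals that still allow sizeable ones. The median difference of the 10 genes from S288C was -0.95 in NFRI 3236 and -0.51 in NFRI 3155. Over all genes it was -0.07 and -0.06. For *KAR2* in NFRI 3236 minus S288C the difference was -1.33 (-2.22 to -0.43, adjusted p = 0.0584), and for *ERO1* it was -0.99 (-1.79 to -0.20, adjusted p = 0.102). *PDI1* had -1.14 (-2.07 to -0.20, adjusted p = 0.108), *JEM1* -0.91 (-1.72 to -0.10, 0.135) and *MPD1* -0.76 (-1.33 to -0.20, 0.0793). The intervals of *SIL1*, at -0.59 (-1.54 to 0.36), and *FPR2*, at -0.35 (-0.94 to 0.25), included 0. Without the third S288C array at 39°C, *KAR2* at -1.69 (adjusted p = 0.00591), *ERO1* at -1.27 (0.0266) and *PDI1* at -1.49 (0.0180) also passed. The share of all genes in that fit is not given, so these added calls are not read as particular to the 10 genes. With all arrays, the narrowest interval around 0 in NFRI 3236 minus S288C was that of *SCJ1*, at 0.03 (-0.51 to 0.57). Between the NFRI strains no gene differed by limma (NFRI 3236 minus NFRI 3155, 0 of 10 against 2.5% of all genes), and 1 had an unadjusted p under 0.05, *LHS1* at -1.02 (-1.76 to -0.27, adjusted p = 0.165). Both differences from S288C share its arrays and are not independent of each other.

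Few of the 10 genes passed the test for a difference in level at a single temperature. At 39°C, *JEM1* was 0.522-fold lower in NFRI 3155 than in S288C (adjusted p = 0.0115), which is 1 of 10 genes against 23.1% of all genes lower. That call was lost without the first NFRI 3155 array at 39°C (adjusted p = 0.0742), with the median shift (0.0667) and with no shift (0.708). None of the 10 genes passed in NFRI 3236 against S288C, where 28% of all genes did, or in NFRI 3236 against NFRI 3155, where 20.4% did. Without the third S288C array at 39°C, *KAR2*, *PDI1* and *ERO1* also passed as lower than in S288C. Their log2 differences were -1.11, -0.97 and -0.91 in NFRI 3236 and -0.83, -0.72 and -0.77 in NFRI 3155. *EUG1* passed too in NFRI 3155 (-0.59). The share of all genes in that fit is not given, so these added calls are not read as particular to the 10 genes. At 30°C, *EUG1* was 1.81-fold higher (adjusted p = 0.00662) and *LHS1* 1.62-fold higher (0.0330) in NFRI 3236 than in S288C, 2 of 10 genes against 15.4% of all genes. The *LHS1* call was lost when any 1 of the 5 arrays compared was left out (adjusted p = 0.0549 to 0.168), and the *EUG1* call without the first NFRI 3236 array at 30°C (0.05002). Both were lost with quantile normalization (adjusted p = 0.0639 and 0.0642). None passed at 30°C in NFRI 3155 against S288C (30.2% of all genes) or in NFRI 3236 against NFRI 3155 (8.91%). Shares of the 10 genes near or below those of all genes do not set them apart.

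*IRE1*, *HAC1* and *TRL1*, which encode the sensor, the transcription factor and the ligase that joins the spliced *HAC1* mRNA, passed the test in no strain. *HAC1* had log2 changes of 0.47, 0.36 and 0.02 in NFRI 3236, NFRI 3155 and S288C, and the array does not report splicing. Of 6 other oxidoreductases, prolyl isomerases and chaperones, 2 rose in NFRI 3236, 1 in NFRI 3155 and 1 in S288C. *MPD2*, another Pdi1 relative, rose in each strain (log2 1.27, 1.06 and 0.87), *ROT1* rose in NFRI 3236 (0.66), and *ERV2*, a thiol oxidase, fell in S288C by 0.70. Of 6 genes for N-glycan trimming, 1 rose and 1 fell in each NFRI strain and 2 rose and 2 fell in S288C. *GTB1*, a glucosidase subunit, rose in NFRI 3236 (1.11) and S288C (1.88), and *MNL1*, a mannosidase that marks glycoproteins for degradation, fell in all strains (-1.60, -1.20 and -2.48).

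ER-associated degradation draws misfolded proteins out of the ER to the proteasome. Of 13 genes for it, 7 rose in NFRI 3236, 7 in NFRI 3155 and 9 in S288C, and none fell. *UFD1* (log2 1.34, 1.46 and 2.15) and *NPL4* (1.19, 1.31 and 1.76), partners of the Cdc48 ATPase, changed most. Of 13 genes for translocation into the ER and signal peptidase, none rose and 5 fell in NFRI 3236, none rose and 4 fell in NFRI 3155, and 3 rose and 3 fell in S288C. *SBH2* (-1.57, -1.34 and -1.30) and *SSH1* (-1.23, -1.22 and -1.66), of the alternative translocon, fell in all strains. *SEC72*, *SEC63* and *SEC61* rose in S288C (1.16, 0.69 and 0.63).

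Outside the ER, 4 of 10 genes of the cytosolic and mitochondrial Hsp70 systems rose in NFRI 3236, 4 in NFRI 3155 and 8 in S288C, and none fell. *SSA4*, the heat-inducible cytosolic Hsp70, rose by log2 4.97, 5.59 and 6.41, and *SSE2*, a cytosolic counterpart of Lhs1, by 4.52, 4.67 and 4.58. Their medians were 0.39, 0.89 and 2.01 in NFRI 3236, NFRI 3155 and S288C.

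**Figure D5:**
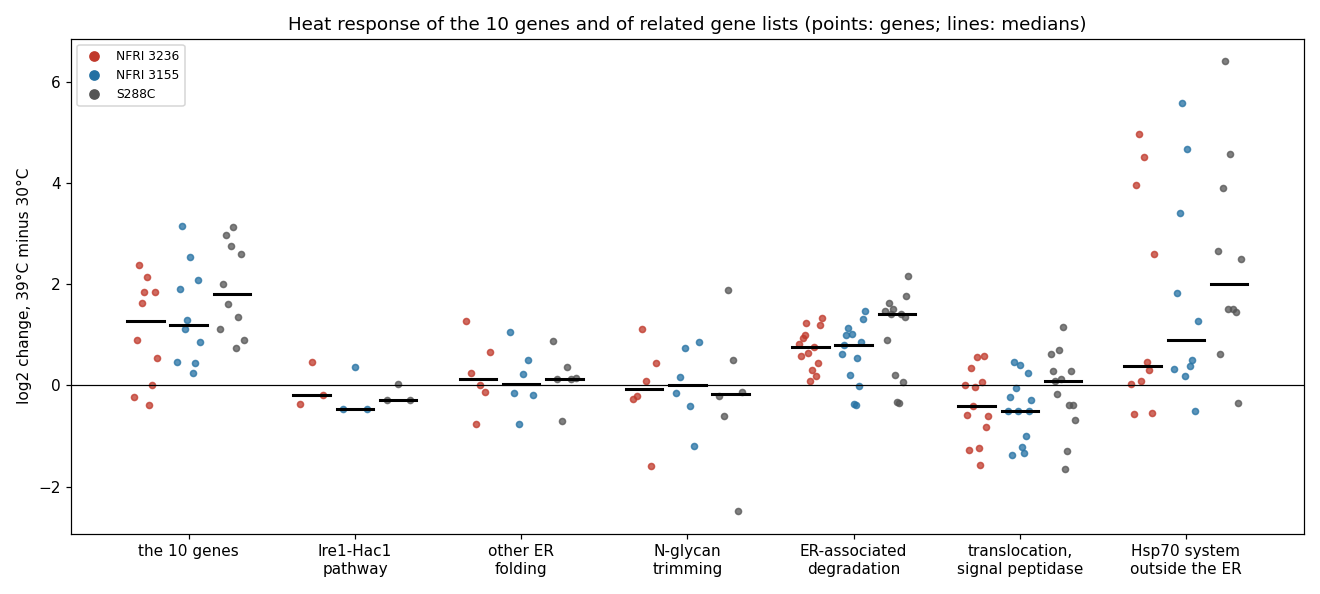
Log2 change, 39°C minus 30°C, of the 10 genes and of each gene of 6 related lists in the 3 strains; points are genes and lines medians. The medians of the 10 genes (1.27 in NFRI 3236, 1.2 in NFRI 3155 and 1.81 in S288C) lie above those of the lists of other ER genes. Among those ER lists degradation comes next (0.75, 0.80 and 1.41). The Hsp70 systems outside the ER have 0.39, 0.89 and 2.01, which is above the 10 genes in S288C.

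*KAR2* and *ERO1* differed in the genes that followed them most closely. As a description over 14 arrays with each strain's mean removed, among 4945 other genes, *KAR2* was most like *HSP60* (Pearson r = 0.969) and *HSP10* (0.959), which encode the mitochondrial chaperonin and its partner, then *SOD1* (0.949), *PDI1* (0.949) and *HCH1* (0.944). *ERO1* was most like *STF2* (0.996), *MPD1* (0.994), *HSP82* (0.994), *UBX4* (0.993) and *SSA4* (0.992). *JEM1* was most like *KDX1* (0.987), *ULI1* (0.982), *PTP2* (0.977), *DDR48* (0.976) and *AIM17* (0.976). *KAR2* and *ERO1* correlated at 0.733, and *ERO1* with *LHS1* at 0.976 and *SIL1* at 0.952. All such values share the same arrays, the same temperature contrast and the same scaling.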

How the data were processed

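RNA of 3 yeast strains at 39°C and 30°C was measured on 14 one-colour Affymetrix Yeast Genome 2.0 arrays. Poly-A RNA was labelled in a single cycle, and the authors made 1 linear intensity per probe set with the Affymetrix GCOS software, which is what they deposited. The study's methods describe duplicate experiments with independently grown cells, and S288C has 3 arrays per temperature here.

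From these intensities, values under 1 were set to 1, taken to log2 and reduced by the array's 75th percentile, as in the study's methods. Genes with several probe sets were given the brightest probe set, and a gene was tested if it passed the 20th percentile on every array of at least 1 group, which left 5443. Group means were fitted over all 14 arrays in limma 3.58.1 under R 4.3.3 with empirical Bayes moderation. P-values were adjusted by Benjamini-Hochberg over all genes in each of 12 comparisons, with 0.05 as the threshold. Differences of response were interaction terms. Precision is limited by the few arrays per group.

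The members and gene lists were chosen with earlier results of these data known. All 10 members were named. Other genes were named where called with the largest mean change of their list or against its direction. Alternatives were array scaling, an added constant, no filter, only the groups compared, a replicate block, the mean of probe sets, the methods' t-test and leaving out each array. Sequences were not used here.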

Additional observations from a re-analysis of the deposited data

Results flagged for a closer look

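In 4 cases the heat response of a gene differed between strains by the interaction test (limma, adjusted p under 0.05). *EUG1*, a relative of the disulfide isomerase, responded less in both NFRI strains than in S288C, by -1.36 on the log2 scale in NFRI 3236 and by -0.91 in NFRI 3155. Its 30°C signal was 6.73 and 6.65 in NFRI 3236 and 5.02 and 4.73 in NFRI 3155, against 3.72, 3.29 and 4.10 in S288C. *LHS1*, the Hsp110-type exchange factor, responded less in NFRI 3236 than in S288C, by -1.12. *JEM1*, the membrane-bound J-domain protein, responded less in NFRI 3155 than in S288C, by -1.45. Of all genes, 5.82% had a smaller response in NFRI 3236 than in S288C, and 8.87% in NFRI 3155. None of the 4 calls held with no shift of the arrays (adjusted p = 0.0894 to 0.616). *LHS1* and the NFRI 3155 value of *EUG1* also lost theirs in most fits with an array left out. All 4 values rest on the S288C arrays at 30°C, which stood apart in their poly-A controls, and the part of this in the differences was not tested.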

How the results depend on the processing

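Of 2820 values of single genes recomputed under the alternatives, 2589 kept their direction and their side of the threshold, 80 turned in sign without passing the threshold in either fit, 71 lost the call, 77 gained it and 3 passed the threshold with the sign turned. The 3 were *KAR2* (1.14) and *PDI1* (1.02) in the heat response of NFRI 3236 with quantile normalization, and *FPR2* at 30°C in NFRI 3155 against S288C with no shift (0.96). The cause was not tested. The heat responses kept their count of higher genes within 1.5 times of the main one, except that the methods' t-test after Benjamini-Hochberg called 0 in NFRI 3236 and 0 in NFRI 3155. With no shift the median log2 change of all genes was 0.74 in NFRI 3236, 0.13 in NFRI 3155 and 0.56 in S288C, and with the median shift it was 0.01, -0.36 and -0.28.

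Genes with a smaller heat response in NFRI 3236 than in S288C, 2 in the main fit, numbered 0 with no shift, 1 with the median shift, 1 with only the groups compared, and 1 to 5 with an array left out. Those smaller in NFRI 3155 than in S288C, also 2, numbered 0 with no shift and 0 to 3 with an array left out. Of all genes, 0.698% had a smaller response in NFRI 3236 with no shift and 2.63% with the median shift. In NFRI 3155 it was 2.57% with no shift. At 39°C, 3.99% of all genes were lower in NFRI 3155 than in S288C with no shift and 23.3% with quantile normalization. At that temperature, genes higher in NFRI 3236 than in S288C numbered 1 with no shift and 1 with the median shift, in place of 0. Of all genes, 55% and 36.5% were higher in these fits, and 14.4% were lower with quantile normalization and 22.2% with 16 added. Genes lower there numbered 2 with quantile normalization, 1 with 16 added and 0 to 3 with an array left out, in place of 0. Genes lower in NFRI 3155 than in S288C, 1 in the main fit, numbered 0 with no shift, 2 with quantile normalization, 0 with the median shift, 0 by the methods' t-test after Benjamini-Hochberg, 2 by it unadjusted and 0 to 5 with an array left out.

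At 30°C, genes higher in NFRI 3236 than in S288C, 2 in the main fit, numbered 10 with no shift, 0 with quantile normalization, 4 with only the groups compared, 4 by the methods' t-test unadjusted and 0 to 3 with an array left out. Genes higher in NFRI 3155 than in S288C, 0 in the main fit, numbered 9 with no shift, 4 with the median shift, 1 with 16 added, 2 with only the groups compared, 1 by the methods' t-test after Benjamini-Hochberg, 3 by it unadjusted and 0 to 1 with an array left out. Genes higher in NFRI 3236 than in NFRI 3155 numbered 3 by the methods' t-test unadjusted, in place of 0. Of all genes, 44% were higher in NFRI 3236 than in S288C with no shift, and 12.4% with quantile normalization. In NFRI 3155 against S288C, 58% were higher with no shift and 31.2% with the median shift. The no-shift median log2 difference was 0.93 and 1.14 over all genes, and 1.30 and 1.26 over the 10 genes. Shares are not given for fits with an array left out or the unadjusted t-test.

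Correlations of -0.08 to 0.05 between deviations of same-numbered arrays, few per group, cannot exclude pairing. With the replicate block, genes with a smaller response than in S288C numbered 1 for NFRI 3236 and 0 for NFRI 3155, genes lower in NFRI 3236 than in S288C at 39°C numbered 1, and genes higher there at 30°C numbered 1. The heat responses kept 6, 7 and 10 genes higher in NFRI 3236, NFRI 3155 and S288C, against 14.2%, 16.5% and 23.9% of all genes. At 39°C *KAR2* reached 91.2% of the array's highest signal, *PDI1* 76.1% and *ERO1* 73.6%.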
